A study of Drosophila melanogaster with 2 samples.

Results

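The amines dopamine, serotonin and octopamine act on fly neurons through G protein-coupled receptors, and 8 of these receptor genes are described here in the larval brain. They are the dopamine receptors Dop1R1, Dop2R and DopEcR, the serotonin receptors 5-HT1A and 5-HT1B, and the octopamine receptors Oamb, Octbeta1R and Octbeta2R. They were chosen by symbol, and all 8 were found among the 17472 named gene rows of the count matrices. The data are single-cell RNA sequencing (droplets, 3′ counting) of brains of Drosophila melanogaster larvae in the third instar, in a series that concerns which neurons express the voltage-gated sodium channel gene para. The MeOH library held methanol-fixed cells pooled from 7 inbred strains of the DGRP panel with the numbers 761, 639, 502, 409, 382, 136 and 45, each cell being assigned to its line in the deposited data. The fresh library held cells of a hybrid based on DGRP-551, which the deposited cell table names line_M1. Groups follow the fixation field, although the extraction protocol of the fresh sample also names a methanol step. Each group had 1 library, so strain and fixation cannot be told apart and no test was made between the libraries.

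As background, the receptors that couple to Gs raise cAMP when the amine binds, those that couple to Gi or Go lower it, and others release calcium. In the fly brain dopamine and octopamine signals are known for learning in the mushroom body, for arousal and for feeding, and serotonin for sleep, feeding and aggression. In the larval brain most neurons of the adult are still being made by neuroblasts and ganglion mother cells, beside the smaller number of neurons that already work in the larva.

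The deposited annotation lists 2715 MeOH cells with 13232788 UMIs (unique molecular identifiers, 1 per captured transcript) and 2341 fresh cells with 19752319 UMIs. The median depth was 3564 UMIs per MeOH cell and 6598 UMIs per fresh cell, and 11 cell barcodes occurred in both libraries. Annotation clusters were called neurons by a fixed list of 8 neuronal markers, which gave 1749 MeOH and 1724 fresh neurons. The summed level of these markers was 3518 CPM (UMIs scaled to a common total) in MeOH neurons and 557 CPM in MeOH glia, and 3038 CPM in fresh neurons and 381 CPM in fresh glia. Glia here are the deposited clusters CTX, ENS and AST. There 8 glial markers summed to 2909 CPM in the MeOH library, against 97.5 CPM in MeOH neurons, and to 2686 CPM in the fresh library, against 71.2 CPM in fresh neurons. Neuroblasts and ganglion mother cells, as named in the deposited table, are called progenitors. Cluster 1 met the neuronal rule but was left unnamed, since it held 397 MeOH cells and 13 fresh cells. Cluster 31, with 17 MeOH and 14 fresh cells, also met the rule and was left unnamed. It held at most 4 UMIs of any receptor in either library, so a cluster poor in these receptors is missing from the neurons. The cells deposited as SUR, Lamina and Hey+ Neurons were set apart by name, without the marker rule. Hey+ Neurons (36 MeOH and 69 fresh cells) held at most 3 UMIs of any receptor in either library, so these receptor-poor cells are missing from the neurons too. The clusters were built on these same cells, so the receptors may have had a part in them.

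All 8 receptors were found mainly in neurons and hardly at all in progenitors. In the fresh library neurons held between 96.9% and 100% of each receptor's UMIs. In the MeOH library they held between 76.8% and 91.8%, and cluster 1 held another 4.92% to 20.4%. No receptor had more than 10 UMIs in the 303 MeOH progenitors or more than 8 UMIs in the 361 fresh progenitors. Levels below are CPM over all UMIs of the named cells, with exact Poisson 95% intervals that cover counting error only, and they are compared between cells and not between genes.

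Dop1R1, a Gs-coupled receptor needed for associative learning (FBgn0011582, minus strand of 3R:14165379-14214810 in BDGP6), had 30.1 CPM (26.2 to 34.3) in MeOH neurons against 1.62 CPM in MeOH progenitors. Fresh cells gave 24.7 CPM (22.1 to 27.5) in neurons against 0.273 CPM, a single UMI, in progenitors. Dop2R, a receptor that lowers cAMP (FBgn0053517, minus strand of X:20004680-20062706), had 105 CPM (97.7 to 113) in MeOH neurons and 89.1 CPM (84.1 to 94.2) in fresh neurons. Its progenitors held 1 UMI in the MeOH and 7 UMIs in the fresh library. DopEcR, which responds to dopamine and to the steroid ecdysone (FBgn0035538, minus strand of 3L:4367649-4380387), had 93.0 CPM (86.2 to 100) in MeOH neurons against 3.77 CPM in MeOH progenitors. In fresh cells it had 86.8 CPM (81.9 to 91.9) in neurons against 1.91 CPM in progenitors.

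The serotonin receptor genes 5-HT1A and 5-HT1B, which both encode receptors that lower cAMP, lie near each other on 2R. 5-HT1A (FBgn0004168, plus strand of 2R:19067155-19121958) had 154 CPM (145 to 163) in MeOH neurons against 5.39 CPM in MeOH progenitors, and 111 CPM (105 to 117) in fresh neurons against 2.18 CPM in fresh progenitors. 5-HT1B (FBgn0263116, minus strand of 2R:19022325-19032642) had 18.1 CPM (15.2 to 21.5) in MeOH neurons against 2.16 CPM in MeOH progenitors. Fresh cells gave 21.7 CPM (19.3 to 24.4) in neurons against 0.273 CPM in progenitors. The neuronal intervals lay above those of the progenitors for both genes in both libraries.

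Oamb, an octopamine receptor that can raise intracellular calcium (FBgn0024944, minus strand of 3R:20689018-20714577), had 15.2 CPM (12.5 to 18.2) in MeOH neurons and 2 UMIs in MeOH progenitors. It had 14.9 CPM (12.9 to 17.1) in fresh neurons and no UMI in fresh progenitors, so its level was at least 18.2-fold higher in fresh neurons, taking 3 UMIs as the limit of a count of 0. Octbeta1R, a receptor of the beta-adrenergic type (FBgn0038980, plus strand of 3R:22497215-22520078), had 46.7 CPM (41.9 to 51.9) in MeOH neurons and 53.0 CPM (49.2 to 57.1) in fresh neurons. Its progenitors held 1 UMI in the MeOH and 3 UMIs in the fresh library. Octbeta1R ends 8 bases from the opposite-strand gene CG5346, which had 572 UMIs in all, and whether reads were counted by strand is not given in the sources used here. Octbeta2R, another beta-type receptor that raises cAMP (FBgn0038063, minus strand of 3R:12550625-12595725), had 29.1 CPM (25.4 to 33.3) in MeOH neurons against 1.62 CPM in MeOH progenitors. In fresh cells it had 27.1 CPM (24.4 to 30.0) in neurons against 1.64 CPM in progenitors.

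**Figure D1:**
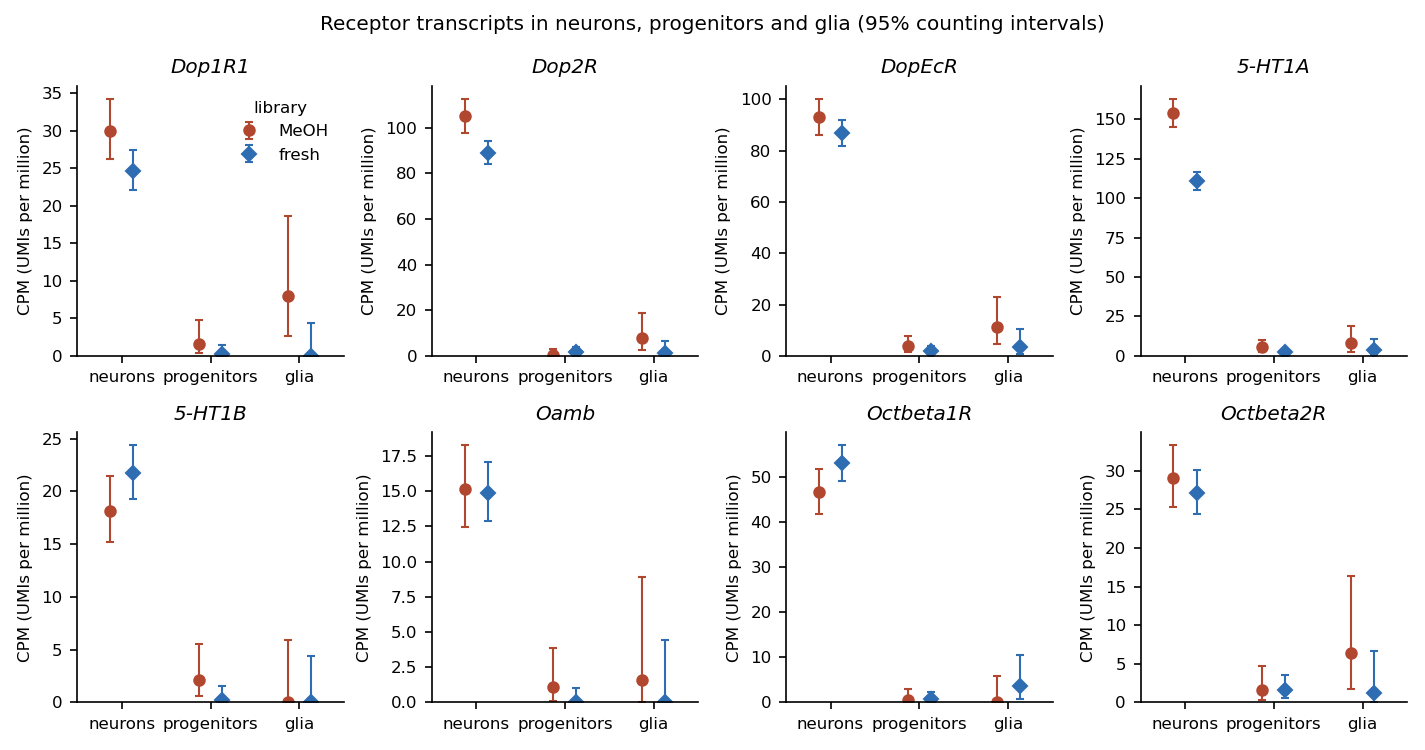
Level of each receptor (CPM, linear axes from 0) in neurons, progenitors and glia of the MeOH library (circles) and the fresh library (diamonds), with exact Poisson 95% intervals. In each panel the neurons of both libraries lie above the progenitors and glia, as for 5-HT1A with 154 CPM in MeOH and 111 CPM in fresh neurons.

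The 7 DGRP lines served as units for a test within the MeOH library, in which counts were summed per line and class and fitted over all genes (edgeR quasi-likelihood test with the line as block). Of 4396 genes tested, 65.7% were called at a Benjamini-Hochberg adjusted p under 0.05 and 33.4% were called higher in neurons than in progenitors. Since so many genes differed, a call here says little about any single gene. Dop2R, DopEcR, 5-HT1A and Octbeta1R passed the filter on low counts, and all 4 were called higher in neurons. None of them had more than 3 UMIs in the progenitors of any line. They passed the filter through the neurons alone, so the filter favoured a call in this direction. The smallest log2 fold was that of DopEcR, 4.49 ± 0.35 (SE, 7 lines, edgeR adjusted p = 3.32e-09), and 5-HT1A had 4.66 ± 0.28 (edgeR adjusted p = 1.31e-10). For Dop2R and Octbeta1R progenitors of 6 of the 7 lines had no UMI, so their fitted folds of 7.08 and 5.90 on the log2 scale depend on the prior count. The other 4 receptors did not pass the filter. In the neurons of every line each receptor had a higher CPM than in the progenitors of that line, and only for Oamb did the ranges of the lines overlap. The share of all genes whose lines separate in this way was not counted, here or in the comparisons below. The separation is therefore a description and not a trait of the receptors.

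Glia served as cells that should largely lack neuronal transcripts, for reading shares of cells with a UMI. At an equal depth of 3300 UMIs per cell, DopEcR was found in 26.2% of 883 MeOH neurons and in 4.35% of 69 MeOH glial cells, and in 23.7% of 1724 fresh neurons and 1.30% of 77 fresh glial cells. 5-HT1A was found in 28.8% of MeOH neurons and 4.35% of MeOH glial cells, and in 20.3% of fresh neurons and 1.30% of fresh glial cells. Dop2R was found in 24.2% of MeOH neurons and 1.45% of MeOH glial cells, and in 17.1% of fresh neurons and 1.30% of fresh glial cells. The rarer receptors were Dop1R1 with 8.27% of MeOH and 4.70% of fresh neurons, 5-HT1B with 5.55% and 6.73%, Oamb with 3.62% and 2.96%, Octbeta1R with 11.4% and 8.76%, and Octbeta2R with 7.70% and 4.93%, in the same order of libraries. The intervals of neurons and glia overlapped for Dop1R1, Oamb and Octbeta2R in both libraries and for 5-HT1B in the MeOH library, so these shares were not separated from background by so few glial cells. Before thinning, the median depth was 4699 UMIs in the MeOH and 6560.5 UMIs in the fresh neurons used, and 6649 and 8822 UMIs in the glial cells. In thinning, 866 MeOH neurons and 34 MeOH glial cells were too shallow and were left out, while no fresh neuron or glial cell was.

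Neurons were split by synaptic gene level. Of a receptor's UMIs in all cells of the MeOH library, the smaller, mature-like group held between 20.9% for 5-HT1B and 50.6% for Octbeta2R. In the fresh library it held between 23.8% for 5-HT1B and 58.5% for Dop1R1. Of the UMIs of all genes, this group held 1378351 of 13232788 in the MeOH and 2095287 of 19752319 in the fresh library. A neuronal cluster was called mature-like if 4 or more of 6 synaptic genes (cpx, Snap25, Syx1A, brp, Syt1 and nSyb) had at least 1.5 times their overall neuronal level. Those clusters were G-KC, 33 and 3, together 231 MeOH and 186 fresh cells. The summed level of the neuronal markers was 6432 CPM in MeOH mature-like and 2850 CPM in MeOH other neurons. The leading genes of cluster 3 were neuropeptide genes such as Eh, Ilp3 and Dsk, so maturity and cell type cannot be told apart in this comparison. Mature-like neurons also had more UMIs per cell, with a median of 5258 against 3208.5 in MeOH other neurons and 10231 against 6377 in fresh other neurons.

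Of 3988 genes tested across the 7 lines, 40.7% were called and 22.6% were called higher in mature-like than in other neurons. The 5 receptors that passed the filter were all called higher, with log2 folds of up to 2.89 and a median of 1.87, and the median over all genes tested was 0.00. They kept the call in all 15 alternative fits run for each of them. Octbeta1R and Octbeta2R were low in other neurons, with medians of 28.9 and 12.3 CPM over the lines, and could pass the filter through the mature-like group. For both, the filter itself therefore favoured a call in this direction. Dop1R1, 5-HT1B and Oamb did not pass the filter. When the fit was made without it, 18.8% of 10425 genes were called and 9.14% were called higher. In that fit Dop1R1 had a log2 fold of 2.13 and Oamb of 2.06, and both were called (edgeR adjusted p = 1.42e-15 and 5.97e-08). There 5-HT1B had 0.39 and was not called (edgeR adjusted p = 0.589).

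Octbeta2R had 97.2 CPM in MeOH mature-like and 13.5 CPM in MeOH other neurons, and 99.3 CPM in fresh mature-like and 13.9 CPM in fresh other neurons. Over the lines it ranged between 43.0 and 138 CPM (median 87.6) in mature-like neurons and between 8.02 and 17.9 CPM (median 12.3) in other neurons. The groups of lines did not overlap, and the log2 fold was 2.89 ± 0.25 (SE, 7 lines, edgeR adjusted p = 4.92e-08). Octbeta1R ranged between 77.3 and 258 CPM (median 118) in mature-like neurons of the lines and between 8.02 and 41.7 CPM (median 28.9) in other neurons, again without overlap. Its log2 fold was 2.47 ± 0.23 (edgeR adjusted p = 8.92e-08), and in the fresh library it had 188 CPM in mature-like against 28.5 CPM in other neurons. Oamb had 44.3 CPM in MeOH mature-like and 8.49 CPM in MeOH other neurons, and 51.1 CPM against 8.27 CPM in the fresh library. It was higher in mature-like neurons in 5 of 7 lines, and DGRP-45 had no Oamb UMI in its 10 mature-like neurons.

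Dop2R had 271 CPM in MeOH mature-like and 66.8 CPM in MeOH other neurons, and 299 CPM in fresh mature-like and 50.7 CPM in fresh other neurons. Its lines ranged between 21.5 and 410 CPM (median 209) in mature-like neurons and between 55.2 and 78.6 CPM (median 73.5) in other neurons. All lines but DGRP-45 were higher in mature-like neurons, and the log2 fold was 1.87 ± 0.22 (edgeR adjusted p = 2.17e-06). DopEcR ranged between 151 and 268 CPM (median 209) in mature-like neurons of the lines and between 44.4 and 79.4 CPM (median 72.1) in other neurons. No line overlapped, the log2 fold was 1.63 ± 0.14 (edgeR adjusted p = 5.26e-08), and the fresh library had 179 CPM in mature-like against 69.9 CPM in other neurons. Dop1R1 ranged between 25.0 and 177 CPM (median 87.3) in mature-like neurons of the lines and between 12.8 and 23.1 CPM (median 17.4) in other neurons. It was higher in mature-like neurons of all 7 lines, and in the fresh library it had 94.98 CPM in mature-like against 11.8 CPM in other neurons.

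5-HT1A ranged between 0 and 521 CPM (median 271) in mature-like neurons of the lines and between 66.3 and 158 CPM (median 106) in other neurons. It was higher in mature-like neurons in 6 of 7 lines, all but DGRP-45, with a log2 fold of 1.35 ± 0.23 (edgeR adjusted p = 1.18e-04). The fresh library had 265 CPM in mature-like and 82.8 CPM in other neurons. 5-HT1B differed least of the 8, with 24.7 CPM in MeOH mature-like and 16.6 CPM in MeOH other neurons, a ratio of 1.48 whose interval of 0.973 to 2.21 includes no difference. In the fresh library it had 34.4 CPM in mature-like and 19.4 CPM in other neurons, a ratio of 1.77 (1.34 to 2.32). Its lines overlapped, and 5 of 7 were higher in mature-like neurons.

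**Figure D2:**
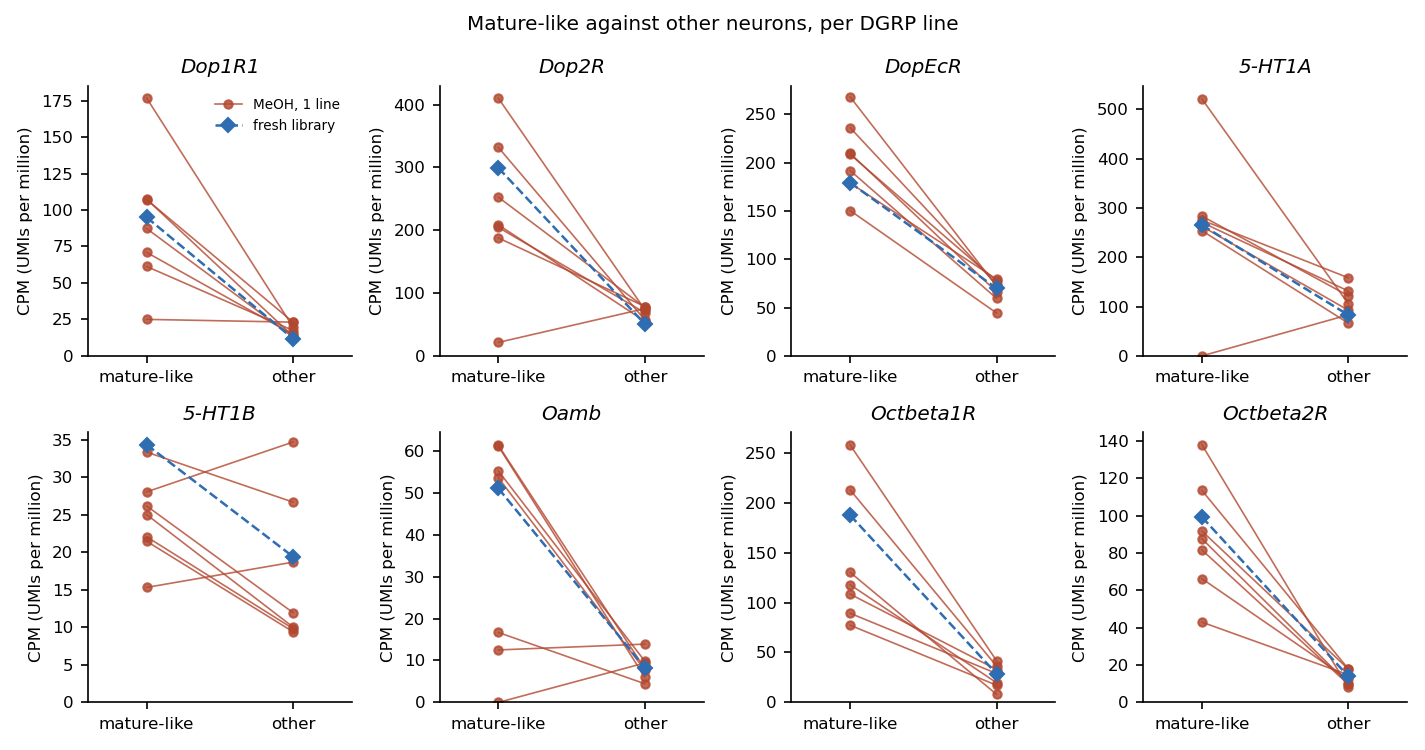
Level of each receptor (CPM, linear axes from 0) in mature-like neurons on the left and other neurons on the right of each panel; circles joined by a line are the 7 DGRP lines of the MeOH library and dashed diamonds the fresh library. For Octbeta2R all mature-like values, from 43.0 CPM upward, lie above all other-neuron values, while for 5-HT1B the lines cross.

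Other genes of amine signalling were read from lists. Of 9 other amine receptors, 3 passed the filter and all 3 were higher in mature-like neurons, namely Dop1R2 (log2 fold 3.15), Octbeta3R (1.65) and the alpha-adrenergic-type octopamine receptor Octalpha2R (2.33), which the files call CG18208. Of 12 genes of amine synthesis and transport only the vesicular monoamine transporter Vmat passed the filter, with a log2 fold of 3.73 (edgeR adjusted p = 6.68e-05). Dop1R2 was a leading gene of the cluster G-KC. Over both libraries it had 1094 CPM there and 10.5 CPM in other neurons, so it could pass the filter through the mature-like group. The filter itself therefore favoured its call in this direction, and this was not checked for Octbeta3R, Octalpha2R and Vmat. Of 27 signalling genes 20 were tested, 8 were higher and 2 were lower, with a median log2 fold of 0.21, so that the 10 called stand beside the 40.7% of all genes called. The higher ones included the adenylyl cyclase genes Ac13E (3.21) and Ac78C (2.26), the protein kinase C gene Pkc53E (2.25), the protein kinase A subunit gene Pka-R2 (1.23) and the Go subunit gene Galphao (0.80). The lower ones were the phospholipase C gene norpA (-0.39) and the receptor kinase gene Gprk1 (-0.60). Against progenitors 19 signalling genes were tested, of which 16 were higher in neurons and 2 were lower, beside 33.4% called higher and 65.7% called among all genes, with a median of 1.09 against -0.01 over all genes. Those 2 were the Gi subunit gene Galphai (-4.52) and CrebA (-1.90).

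Levels were ranked among 27 annotation values with at least 20 cells in each library. There cluster 3 (184 MeOH and 163 fresh cells) had the highest level of 7 receptors in both libraries. The rule left out smaller neuronal clusters, and some of them had higher levels. G-KC, with 17 fresh cells, had more Dop1R1 and Dop2R in both libraries and more Oamb in the fresh library. Cluster 32 had more Dop1R1 in both libraries. Cluster 33 had more fresh Dop2R (340 CPM) and more MeOH Oamb (52.9 CPM). The intervals of clusters 32 and 33 overlapped those of cluster 3. Cluster 3 had 273 CPM of Dop2R in the MeOH and 279 CPM in the fresh library, 233 and 194 CPM of DopEcR, 359 and 276 CPM of 5-HT1A, and 109 and 107 CPM of Octbeta2R, in the same order. For these 4 receptors the interval of cluster 3 lay above that of the next of the 27 values in both libraries. Cluster 3 had 75.8 CPM of Dop1R1 in the MeOH and 83.2 CPM in the fresh library, 149.7 and 200.5 CPM of Octbeta1R, and 44.9 and 50.8 CPM of Oamb. For Dop1R1 and Octbeta1R the MeOH interval overlapped that of the next cluster, and for Oamb both did.

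Cluster 13 (68 MeOH and 69 fresh cells) came next in this ranking for Dop2R, Oamb, Octbeta1R and Octbeta2R in both libraries, although it was not mature-like. Its leading genes included Sox14 and Eip74EF, both known as genes induced by ecdysone. It had 131 CPM of Octbeta1R in the MeOH and 117 CPM in the fresh library, and 44.5 and 37.8 CPM of Oamb. For 5-HT1B it was the highest of the annotation values with at least 20 cells, with 48.9 CPM (30.7 to 74.1) in the MeOH and 45.2 CPM (32.7 to 60.9) in the fresh library. These intervals overlapped those of the next clusters, so the order at the top for 5-HT1B is not settled by the counts. 1 cell of cluster 13 held 27 of its 111 fresh Octbeta1R UMIs.

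Cluster 9 (92 MeOH and 79 fresh cells) was at the other end. It had no UMI of Oamb or Octbeta2R in either library and at most 2 UMIs of Dop1R1, Dop2R, 5-HT1B or Octbeta1R. Such zeros were not particular to it, since Oamb had no UMI in 6 MeOH and 4 fresh values of the 18 neuronal ones, and Octbeta2R in 9 and 3. For Oamb the upper limit of its ratio to the remaining other neurons was 1.26 in the MeOH and 1.03 in the fresh library, so a lower level was not detectable at this depth. Its Dop2R level was 0.0446 times that of the remaining other neurons in the fresh library (0.00113 to 0.250, from 1 UMI). DopEcR was still found there, at 26.7 CPM in the MeOH and 28.2 CPM in the fresh library. The cells deposited as Hey+ Neurons, after a Notch target gene, had no UMI of Dop1R1, Dop2R, Oamb or Octbeta2R in 36 MeOH and 69 fresh cells. The upper limit of these zeros was 23.8 CPM in the MeOH and 10.7 CPM in the fresh library, above the levels of Oamb in other neurons of both libraries and of Dop1R1 and Octbeta2R in MeOH other neurons, so a lower level was not detectable there.

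The cells named G-KC (28 MeOH and 17 fresh cells) carried a summed level of 7 Kenyon cell markers of 5259 CPM in the MeOH and 7737 CPM in the fresh library, against 2144 and 989 CPM over all neurons. Kenyon cells are the intrinsic neurons of the mushroom body. Dop1R1 had 265 CPM (187 to 366) in MeOH G-KC cells and 434 CPM (317 to 581) in fresh G-KC cells, and 23 of 28 MeOH and 10 of 17 fresh cells had a UMI. In the MeOH library this was 3.50 times (2.31 to 5.23) the level in cluster 3. Dop2R had 316 CPM in MeOH and 598 CPM in fresh G-KC cells, and in the fresh library all 17 cells had a UMI. This was 1.16 times (0.822 to 1.59) the level in cluster 3 in the MeOH and 2.14 times (1.62 to 2.79) in the fresh library. Oamb had 2.09 times (1.01 to 3.91) its level in cluster 3 in fresh G-KC cells. In MeOH G-KC cells the Oamb ratio was 0.639 (0.167 to 1.75). In the MeOH library 5-HT1A had 86.1 CPM in G-KC cells, 0.240 times (0.123 to 0.423) its level in cluster 3, and DopEcR had 0.370 times (0.188 to 0.657). Fresh G-KC cells had 5.22 times (3.66 to 7.31) the Dop1R1 level of cluster 3 and 0.348 times (0.139 to 0.725) its DopEcR level, and for 5-HT1A the ratio was 0.700 (0.424 to 1.09). Cluster 32 (16 MeOH and 11 fresh cells) also had Dop1R1, at 138 CPM in the MeOH and 87.4 CPM in the fresh library.

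**Figure D3:**
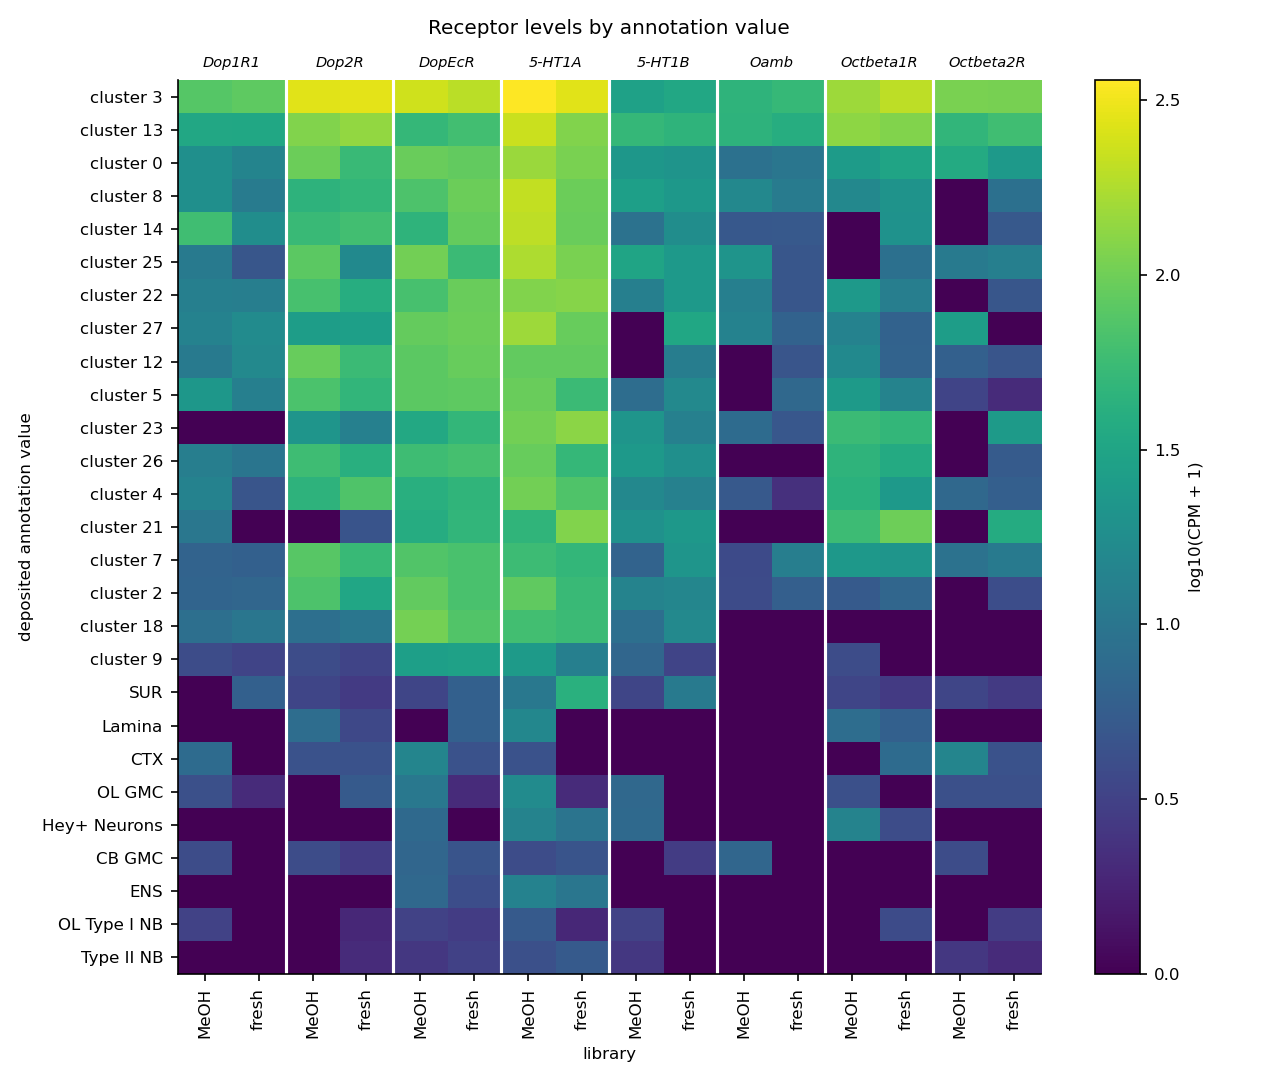
Level of the 8 receptors, as log10(CPM + 1) in colour, in 27 deposited annotation values (rows; neuronal clusters above, others below) with the MeOH library left and the fresh library right for each receptor. Among these values cluster 3 is brightest for 7 receptors, with up to 359 CPM of 5-HT1A in the MeOH library, and cluster 9 is dark for all but DopEcR and 5-HT1A. G-KC and other values with fewer than 20 cells in either library are not among the rows.

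The order of the 18 neuronal annotation values was similar between the libraries for some receptors and less so for others. Spearman's rho between the libraries was 0.866 for Octbeta1R, 0.812 for Dop1R1 and 0.701 for Dop2R, and it was 0.484 for 5-HT1B and 0.401 for Octbeta2R. Octbeta2R had no UMI in 9 of the 18 values in the MeOH library, so its order rests on few counts. These are descriptions over the same clusters, built on integrated runs per the column names of the deposited cell table.

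The genes whose pattern was most like each receptor were sought over the 27 annotation values by Pearson r of log2(CPM + 10), ranked by the lower of the values in both libraries among 5725 genes. The points share the libraries and their depth. Of the 27 values 18 are neuronal, and the others, such as progenitors and glia, mostly held low receptor levels. A high r can thus come from expression in neurons alone. For Dop2R the leading genes were Rdl, a GABA-gated chloride channel gene (r = 0.912 in MeOH, 0.923 in fresh), and para itself (0.893 and 0.911). For DopEcR they were the synaptotagmin gene Syt1 (0.943 and 0.973) and CG31140 (0.935 and 0.949). Syt1 was among the genes that defined mature-like neurons. For 5-HT1A they were Cow (0.922 and 0.911) and the potassium channel gene SK (0.905 and 0.915). For Dop1R1 they were CG31221 (0.882 and 0.926) and CG8861 (0.857 and 0.896). For Oamb they were IA-2 (0.835 and 0.905) and CG13995 (0.821 and 0.931), and CG13995 was also next to Octbeta2R (0.765 and 0.855) after spab (0.777 and 0.793). For 5-HT1B they were dpr6 (0.843 and 0.838) and CG3257 (0.818 and 0.877), and for Octbeta1R CG42392 (0.852 and 0.818) and CG34353 (0.806 and 0.867). Among the receptors themselves, ranked by the lower r of both libraries, DopEcR and 5-HT1A were most alike (0.882 and 0.903) and 5-HT1B and Octbeta2R least alike (0.360 and 0.619). Within the fresh library alone 5-HT1A with 5-HT1B (0.929) and Octbeta1R with Octbeta2R (0.921) had a higher r.

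The number of receptors found in the same neuron was read at 3300 UMIs per neuron. At least 2 of the 8 receptors were found in 63.7% of MeOH mature-like and 23.3% of MeOH other neurons, and in 78.0% of fresh mature-like and 15.7% of fresh other neurons. At least 4 receptors were found in 14.3% of MeOH mature-like and 0.571% of MeOH other neurons, and in 24.2% of fresh mature-like and 0.260% of fresh other neurons. No receptor was found in 9.89% of MeOH mature-like and 37.8% of MeOH other neurons, and in 5.91% of fresh mature-like and 49.2% of fresh other neurons. Without thinning, every one of the 186 fresh mature-like neurons had a UMI of at least 1 receptor, and the mean was 3.92.

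**Figure D4:**
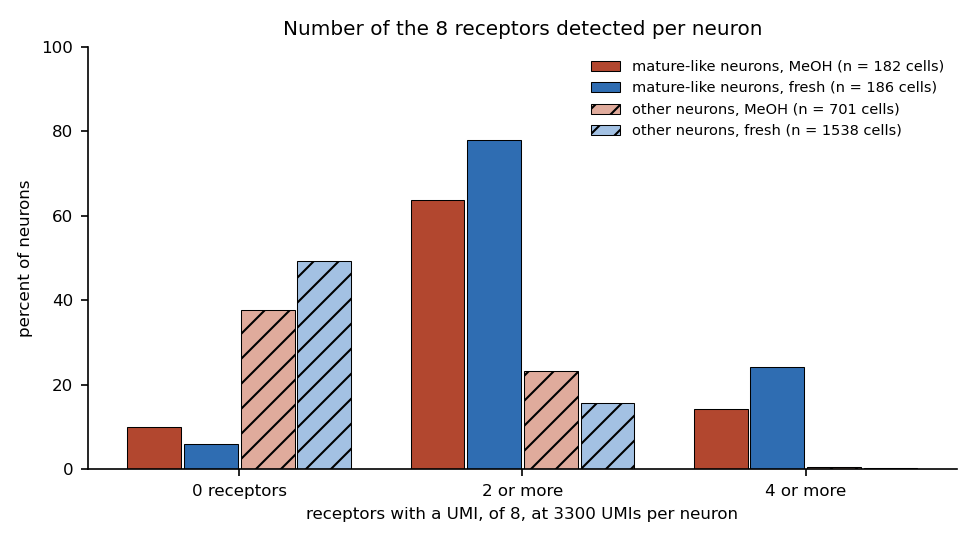
Percent of neurons (axis from 0 to 100) in which 0, at least 2 or at least 4 of the 8 receptors had a UMI after thinning to 3300 UMIs per neuron, for mature-like neurons (plain bars) and other neurons (hatched bars) of the MeOH and fresh libraries. At least 4 receptors were found in 14.3% of MeOH and 24.2% of fresh mature-like neurons.

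1 pair of receptors occurred together in other neurons of both libraries with intervals that did not overlap. 5-HT1A was found in 48.7% (32.4 to 65.2) of 39 MeOH other neurons with a 5-HT1B UMI, against 24.9% (21.7 to 28.4) of those without. In the fresh library it was found in 32.3% (22.9 to 42.7) of 93 other neurons with a 5-HT1B UMI, against 16.9% (15.0 to 18.9) of those without. These shares are at 3300 UMIs, with exact Clopper-Pearson intervals over cells of 1 library, and cells are not replicates. The pair was picked by this separation, so chance was not excluded. Levels of both genes also differed between clusters, and the part of cluster make-up was not tested. In mature-like neurons no pair had separate intervals in either library.

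Neurons were also grouped by their transmitter genes, as a description. Dop1R1 had 44.1 CPM in 342 MeOH neurons with VAChT (acetylcholine transporter) UMIs as the sole transmitter marker and 16.7 CPM in 455 MeOH neurons with VGlut (glutamate transporter) alone. The fresh library gave 33.3 CPM in 473 VAChT neurons and 17.5 CPM in 407 VGlut neurons. Over the lines the VAChT values lay between 20.6 and 71.8 CPM (median 39.1) and the VGlut values between 6.45 and 39.4 CPM (median 12.7), so the lines overlapped. Mature-like neurons made up 17.5% of the MeOH VAChT and 12.5% of the MeOH VGlut neurons, and their part in the difference was not tested. 5-HT1A had 192 CPM in 132 MeOH and 175 CPM in 181 fresh neurons with Gad1 (GABA synthesis) alone, against 119 and 84.0 CPM in VGlut neurons of the MeOH and fresh libraries. VAChT neurons had 167 CPM in the MeOH and 105 CPM in the fresh library. Over the lines the Gad1 values lay between 92.6 and 312 CPM and the VGlut values between 39.4 and 236 CPM, so they overlapped. Mature-like neurons were 21.2% of the MeOH and 15.5% of the fresh Gad1 neurons, against 12.5% and 8.60% of the VGlut neurons, and their part was not tested.

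Neurons that release amines were few. In neurons with at least 2 Vmat UMIs, 5-HT1A had 357 CPM in 29 MeOH cells and 269 CPM in 34 fresh cells, against 147 CPM in MeOH and 106 CPM in fresh neurons with no Vmat UMI. Of these, the neurons with Trh, the enzyme gene of serotonin synthesis, had 448 CPM (298 to 647) of 5-HT1A in 7 MeOH cells and 492 CPM (369 to 644) in 8 fresh cells. A 5-HT1A UMI was present in 6 of the 7 MeOH and 7 of the 8 fresh cells, but 1 fresh cell held 31 of the 53 UMIs and 1 MeOH cell 10 of the 28. Neurons with Vmat and the tyrosine hydroxylase gene ple, which make dopamine, had 444 CPM (303 to 626) of 5-HT1A in 11 MeOH cells, where 1 cell held 15 of the 32 UMIs, and 78.2 CPM (31.4 to 161) in 6 fresh cells. Dop2R had 430 CPM (292 to 610.0) in these ple neurons and 304 CPM (183 to 475) in the Trh neurons of the MeOH library, against 99.8 CPM in MeOH neurons with no Vmat UMI. The fresh library gave 145 CPM (77.3 to 248) in ple neurons and 111 CPM (57.6 to 195) in Trh neurons, against 87.5 CPM in neurons with no Vmat UMI. The intervals of ple and Trh neurons overlapped for Dop2R in both libraries, and for 5-HT1A in the MeOH library. Mature-like neurons were 37.9% of the MeOH and 41.2% of the fresh Vmat neurons, against 12.6% and 10.2% of neurons without Vmat, and this was not separated from the transmitter.

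The series concerns para, so neurons with a para UMI were compared with those without, after thinning to 3300 UMIs and without para in the fit. Of 2259 genes tested across the 7 lines, 12.3% were called and 8.41% were called higher in neurons with para. Dop2R, DopEcR and 5-HT1A passed the filter and were all 3 called higher. Mature-like neurons made up 45.9% of 268 MeOH neurons with para and 9.59% of 615 without, and 43.0% of 230 fresh neurons with para and 5.82% of 1494 without. When the fit was made in other neurons only, 5 genes were called in place of 278, and Dop2R (log2 fold 0.55, edgeR adjusted p = 0.750) and 5-HT1A (0.35, edgeR adjusted p = 0.847) were not among them. DopEcR did not pass the filter in that fit.

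Dop2R ranged between 77.6 and 244 CPM (median 152) in neurons with para of the 7 lines and between 56.6 and 126 CPM (median 74.2) in neurons without. It was higher in neurons with para in all 7 lines, with a log2 fold of 0.87 ± 0.17 (SE, edgeR adjusted p = 0.00267), and in the fresh library it had 204 CPM in neurons with para against 62.1 CPM in neurons without. DopEcR ranged between 95.7 and 237 CPM (median 136) in neurons with para and between 33.7 and 111 CPM (median 83.3) in neurons without. Its log2 fold was 0.86 ± 0.21 (edgeR adjusted p = 0.00988), it was higher in all 7 lines, and without DGRP-409 it was 0.70 and not called (edgeR adjusted p = 0.0634). 5-HT1A ranged between 169 and 444 CPM (median 176) in neurons with para and between 40.4 and 214 CPM (median 121) in neurons without. Its log2 fold was 0.75 ± 0.23 (edgeR adjusted p = 0.0433), it was higher in 6 of 7 lines, and the call was lost in 5 of the 7 fits that left out 1 line. The groups of lines overlapped for every receptor.

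Octbeta1R did not pass the filter. In the fit without the filter 4.35% of 9500 genes were called and 2.68% were called higher, and Octbeta1R had a log2 fold of 1.05 (edgeR adjusted p = 0.00593). In the fresh library it had 116 CPM in neurons with para against 31.03 CPM in neurons without, and it was higher with para in all 7 MeOH lines. Without the filter Dop1R1 (0.65, edgeR adjusted p = 0.356), Octbeta2R (0.83, edgeR adjusted p = 0.139), 5-HT1B (0.58, edgeR adjusted p = 0.793) and Oamb (0.64, edgeR adjusted p = 0.823) were not called. In the fresh library Dop1R1 had 58.0 CPM in neurons with para against 15.0 CPM in neurons without, and 5-HT1B 31.6 CPM against 21.3 CPM. Among the listed genes, Octalpha2R (1.03, edgeR adjusted p = 0.0276), Galphao (0.29) and Pkc53E (1.16) were called higher with para, and the 16 signalling genes tested had a median log2 fold of 0.01.

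**Figure D5:**
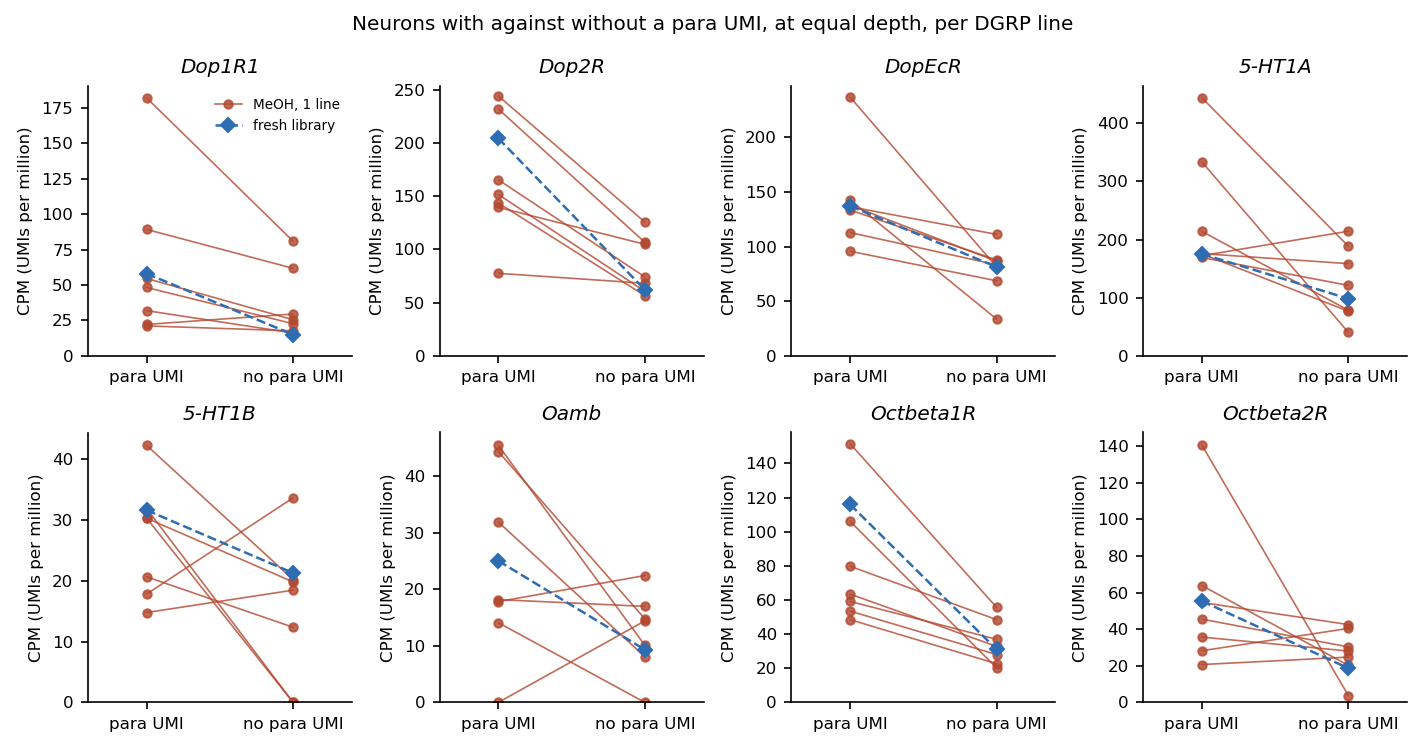
Level of each receptor (CPM, linear axes from 0) in neurons with a para UMI on the left and without one on the right of each panel, after thinning to 3300 UMIs per neuron; circles joined by a line are the 7 DGRP lines of the MeOH library and dashed diamonds the fresh library. Dop2R is higher with para in all 7 lines and in the fresh library (204 against 62.1 CPM), while the lines of 5-HT1B and Oamb cross.

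Over all neurons of a line, 5-HT1A lay between 78.4 CPM in DGRP-45 and 213 CPM in DGRP-409, and Dop2R between 70.0 CPM in DGRP-639 and 160.5 CPM in DGRP-409. DopEcR lay between 80.2 CPM in DGRP-136 and 123 CPM in DGRP-409. The share of mature-like cells among neurons was 4.67% in DGRP-45, 18.3% in DGRP-409 and 28.4% in DGRP-502. Each line had 1 sample, so differences between lines were not tested. 5-HT1A was 1.39 times (1.28 to 1.498) as high in MeOH as in fresh neurons, and 5 of the 7 lines lay above the fresh library. For Oamb the ratio of MeOH to fresh neurons was 1.02 (0.802 to 1.29).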

How the data were processed

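The deposited matrices hold UMI counts per gene and cell barcode made by the authors with Cell Ranger on dm6, and Seurat is also named, per the submitters' processing notes; versions, filters and doublet handling are not given in the sources used here. Percent mitochondrial UMIs, cell annotation and DGRP line came from the authors' deposited cell table, which defines the cells used. 1 row without a gene name (6 UMIs) was left out. No doublet caller was run here. Receptors and gene lists were chosen with earlier results of these data known, and the class rules and tests follow an earlier analysis of them. Leaving cluster 1 unnamed was decided after seeing the data.

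Levels are CPM with exact Poisson intervals and shares have exact Clopper-Pearson intervals (95%), over cells of 1 library. Shares were read after thinning cells to 3300 UMIs. Within the MeOH library counts were summed per DGRP line and class and fitted over all genes with edgeR 4.0.16 (quasi-likelihood, line as block, lines with at least 10 cells per class; R 4.3.3). Class samples of a line come from the same strain and library, which is where the pairing comes from. Calls used Benjamini-Hochberg adjusted p under 0.05. Lines are strains within 1 library, so p-values measure the spread between these strains only. In the mature-like fit without the low-count filter, the p-values of Dop1R1 and Oamb were small beside that spread. On simulated data 2-fold changes (log2 fold 1) were recovered in 82.3%, 82.7% and 85.7% of changed genes for the progenitor, mature-like and para comparisons. The simulation changed only genes above a minimum expected count, with the same dispersion for all genes and no differences between lines. Its shares therefore do not give the power for the rarer receptors. DESeq2 1.42.0, other filters, depths, neuron rules and leaving out each line were alternatives. All 8 receptors are named in each comparison; other genes come from 3 lists, by their calls or largest changes, and the 2 genes most alike per receptor.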

Additional observations from a re-analysis of the deposited data

Results flagged for a closer look

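Among 32 sets of 7 line values examined for a value far from the others, 4 were past Dixon's critical value, and chance alone gives about 1 in 20. DopEcR in neurons had 123 CPM in DGRP-409, above the other lines. On the log2(CPM + 10) scale, the 5-HT1A difference of neurons to progenitors was 1.90 in DGRP-45, the lowest of the lines. In the same line the difference of mature-like to other neurons was -1.44 for Dop2R and -3.22 for 5-HT1A, and this line had 10 mature-like neurons.

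Barcodes that the cell table does not list also held receptor UMIs. The 8 receptors summed to 245 CPM (233 to 257) in 1192 such MeOH barcodes, against 325 CPM in the listed MeOH cells. In 76 such fresh barcodes, with a median of 40565 UMIs, they summed to 89.3 CPM (79.6 to 99.8), against 301 CPM in the listed fresh cells.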

How the results depend on the processing

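No result reversed its direction under the alternatives run. The receptors' log2 folds stayed called in 52 of 52 alternative fits against progenitors and 75 of 75 between mature-like and other neurons, and in 35 of 44 for para, where 9 were weaker. The count of genes called for para, 278, was 152 with DESeq2, 1128 without thinning and 5 in other neurons only, where 140 genes had an unadjusted p under 0.05; fewer cells entered that fit. Without the replicate block the counts were 2824 against progenitors, 1580 for mature-like neurons and 191 for para. Leaving out each line gave 2624 to 3069, 1339 to 1709 and 189 to 313 genes in the same order. Taking neurons by elav or nSyb moved the summed receptor level to 361 CPM in MeOH and 324 CPM in fresh neurons, and the mean of CPM per cell gave 381 CPM in fresh neurons. Receptors per neuron were 0.657 in MeOH and 0.566 in fresh neurons at 2000 UMIs, and 1.53 in fresh neurons without thinning; fewer UMIs were read at the lower depth. Shares moved in 22 of 32 alternatives. Depth limits the rarer receptors, since Oamb had 122 UMIs in the MeOH and 202 in the fresh library, and with 1 library per group strain, fixation and depth cannot be told apart.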
